A study of Homo sapiens with 3 samples.

Results

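The nuclear genes for subunits of respiratory complex I were examined for acetylated lysine 27 of histone H3 (H3K27ac) and for the deacetylase SIRT1 in THP1, a human monocytic leukaemia line. The genes were taken by symbol, as protein-coding records whose name is NDUFA, NDUFB, NDUFC, NDUFS, NDUFV or NDUFAB followed by a digit. The rule gave 38 of 20037 protein-coding genes, spread over 18 chromosomes. Of these, 37 encode single subunits and 1, NDUFC2-KCTD14, is a readthrough record that starts where NDUFC2 starts, so it is no separate promoter. All cells were wild type and had been treated for 24 h with PMA, a phorbol ester that drives THP1 towards a macrophage-like state. Chromatin immunoprecipitation and sequencing gave 1 H3K27ac library and 1 SIRT1 library; the remaining library was input with no antibody, whose signal was not analysed here. There was no untreated group and no replicate, so no effect of PMA could be measured and no p-value is given. Of 6 monocyte and macrophage genes, CD14, CD68, CSF1R, ITGAM and SPI1 had H3K27ac at a record end and LYZ did not, and none of 3 T and B cell genes (CD3D, CD3E, MS4A1) had it.

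Complex I (NADH:ubiquinone oxidoreductase) is the entry point of the mitochondrial electron transport chain. It takes electrons from NADH, passes them along iron-sulfur clusters to ubiquinone, and pumps protons across the inner membrane. Its matrix arm is made of the N module, where NADH is oxidised, and the Q module, where ubiquinone is reduced; its membrane arm holds the proton pumps. In macrophages it supplies ATP and is also a source of reactive oxygen species. The subunits examined here are encoded in the nucleus and scattered over the genome, whereas the pump cores are encoded by mitochondrial DNA. H3K27ac is found on promoters and enhancers in use, and SIRT1 is an NAD-dependent enzyme that removes acetyl groups from histones and other proteins.

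The promoters of these genes differ in sequence, and the windows of 6 genes are shown because they include NRF1, ETS and YY1 letters and the contrast between marked and unmarked starts. Each window runs from 250 bases before to 50 after a RefSeq start in GRCh38.p14, read 5′ to 3′ on the strand of the gene. Capitals mark an NRF1 core (GCATGCGC), an ETS core (CCGGAAG), a YY1 core (AAGATGGC) or a CRE (TGACGTCA) on either strand. No CRE lies in the windows shown, and the other letters searched for, given below, are not marked. The windows lie at chr3:120596086-120596385 on the plus strand (NDUFB4), chr19:1383657-1383956 on the plus strand (NDUFS7) and chr11:47578824-47579123 on the plus strand (NDUFS3). Those of NDUFA9 and NDUFA3 lie at chr12:4648864-4649163 and chr19:54102605-54102904, both on the plus strand. For NDUFA5 the outer start has its window at chr7:123601602-123601901 and the inner start at chr7:123557769-123558068, both on the minus strand.
NDUFB4: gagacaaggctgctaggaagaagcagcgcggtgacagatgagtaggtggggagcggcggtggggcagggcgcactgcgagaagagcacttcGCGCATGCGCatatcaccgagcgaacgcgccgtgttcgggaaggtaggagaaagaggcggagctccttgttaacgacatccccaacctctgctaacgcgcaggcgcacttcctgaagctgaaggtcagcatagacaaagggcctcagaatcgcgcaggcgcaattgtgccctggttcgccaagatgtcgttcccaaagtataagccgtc
NDUFS7: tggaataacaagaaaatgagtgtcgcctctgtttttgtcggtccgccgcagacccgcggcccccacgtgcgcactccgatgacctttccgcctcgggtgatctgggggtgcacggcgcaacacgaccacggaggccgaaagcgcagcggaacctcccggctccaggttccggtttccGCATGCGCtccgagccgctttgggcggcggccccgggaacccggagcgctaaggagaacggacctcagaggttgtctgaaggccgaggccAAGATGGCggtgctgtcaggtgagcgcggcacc
NDUFS3: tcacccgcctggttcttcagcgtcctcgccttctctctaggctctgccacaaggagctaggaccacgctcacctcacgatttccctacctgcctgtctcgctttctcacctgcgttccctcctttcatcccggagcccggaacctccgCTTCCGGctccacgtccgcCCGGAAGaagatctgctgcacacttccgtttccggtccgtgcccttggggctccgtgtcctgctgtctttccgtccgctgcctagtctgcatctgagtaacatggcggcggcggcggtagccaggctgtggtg
NDUFA9: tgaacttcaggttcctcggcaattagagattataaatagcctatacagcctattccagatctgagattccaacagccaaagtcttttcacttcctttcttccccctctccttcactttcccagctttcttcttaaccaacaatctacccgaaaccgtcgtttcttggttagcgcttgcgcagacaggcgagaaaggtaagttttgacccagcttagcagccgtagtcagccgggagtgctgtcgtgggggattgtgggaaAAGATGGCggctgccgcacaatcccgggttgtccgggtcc
NDUFA3: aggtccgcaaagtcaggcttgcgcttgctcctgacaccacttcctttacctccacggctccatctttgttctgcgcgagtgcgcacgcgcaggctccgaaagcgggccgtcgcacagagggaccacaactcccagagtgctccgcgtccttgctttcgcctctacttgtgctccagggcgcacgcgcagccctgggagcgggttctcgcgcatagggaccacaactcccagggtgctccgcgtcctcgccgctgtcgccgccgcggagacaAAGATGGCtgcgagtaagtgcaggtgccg
NDUFA5 outer start: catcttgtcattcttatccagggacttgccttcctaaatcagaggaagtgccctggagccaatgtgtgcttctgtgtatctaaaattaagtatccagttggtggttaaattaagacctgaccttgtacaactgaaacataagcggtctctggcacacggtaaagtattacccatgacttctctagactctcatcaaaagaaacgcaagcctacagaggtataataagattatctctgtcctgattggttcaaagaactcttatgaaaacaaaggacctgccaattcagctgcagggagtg
NDUFA5 inner start: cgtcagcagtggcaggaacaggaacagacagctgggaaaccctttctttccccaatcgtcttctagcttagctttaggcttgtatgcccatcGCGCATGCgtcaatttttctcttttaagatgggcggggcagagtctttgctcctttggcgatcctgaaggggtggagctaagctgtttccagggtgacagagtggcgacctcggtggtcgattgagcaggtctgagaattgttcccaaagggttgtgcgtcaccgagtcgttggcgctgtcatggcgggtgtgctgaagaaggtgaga

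The full NRF1 palindrome lay in the NDUFB4 window, 159 bases upstream of the start, and holds the NRF1 core on both strands. NDUFS7 had an NRF1 core 73 bases upstream and a YY1 core 17 bases downstream. NDUFS3 had an ETS core on each strand, at 102 and 83 bases upstream. The YY1 core of NDUFA9 began 10 bases and that of NDUFA3 21 bases downstream of the start. At NDUFA5 the inner start had an NRF1 core 158 bases upstream, and the outer start at 123601651 had none of the letters that capitals mark. Positions are those of the first letter of the match.

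Windows were found for 33 of the 38 genes; NDUFB5, NDUFB9, NDUFC2 and NDUFS5 were among the 5 with none. Counting 1 window per gene, that of the outermost start, the NRF1 core was found in 5 of 33 (15.2%), against 4.26% of the 15810 windows of other protein-coding genes. These were NDUFA6, NDUFA8, NDUFB4, NDUFS6 and NDUFS7, and the full palindrome was found in NDUFA8 and NDUFB4. The YY1 core was found in 6 of 33 (18.2%), against 3.83% of the others, in NDUFA3, NDUFA6, NDUFA7, NDUFA9, NDUFS4 and NDUFS7. In all 6 it stood after the start on the gene's own strand, at 10 to 25 bases. NDUFB8 also had a YY1 core, 17 bases downstream of its inner start at 100529871, which this count of outermost starts leaves out. A YY1 core anywhere after the start on that strand was found in 2.08% of other windows. The ETS core was about as frequent in complex I windows (15.2%) as in others (14.2%), and so was the SP/KLF core GGGCGG (63.6% and 58.3%). CRE was found in NDUFA10 and NDUFB2, or 6.06% against 2.56%. The NF-Y letters CCAAT were found in 24.2% against 36.4%, and the TATA letters TATAAA in 9.09% against 9.75%. The windows had a median of 25 CpG dinucleotides, against 22 in the others. These are matches of letters only, in small numbers of windows, and occupancy by NRF1, YY1 or ETS factors was not measured.

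**Figure D1:**
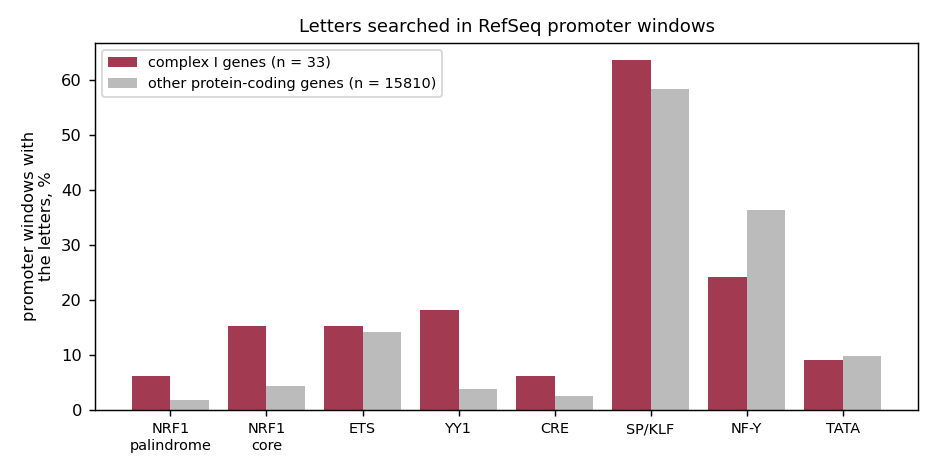
Share of RefSeq promoter windows that hold each set of letters on either strand, in percent, for 33 complex I genes (red) and 15810 other protein-coding genes (grey). The NRF1 core (15.2% and 4.26%) and the YY1 core (18.2% and 3.83%) stand apart from the other genes, while the ETS shares (15.2% and 14.2%) are close.

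Nearly every complex I gene carried H3K27ac at an end of its record. Peaks were placed by their summits, and a summit at most 1 kb from the first or last base of a record counted as lying at its end. By this measure 36 of 38 genes (94.7%) were marked, against 53.0% of all protein-coding genes. With the strand from RefSeq, 32 of 33 genes (97.0%) had a summit within 1 kb of a start, against 57.4% of 15843 genes. The mark at the far end of the record was found in 3 of 33 (9.09%), against 7.22%. Among genes with a known strand, then, the mark lay at the start more often than at the far end.

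The level of the mark differed widely among them. Level is given as the fold at the summit, the authors' own ratio of immunoprecipitated signal to local background. Over the 36 marked genes the strongest gene-end peak had a median fold of 22.9, with quartiles of 16.5 and 29.6 and a highest value of 93.9. All marked protein-coding genes had a median of 17.8 and quartiles of 9.42 and 31.6. Of the 36, 25 lay above that median of 17.8. Summits held between 15 and 306 fragments, a number recovered from the fold and the p-value of each peak. The 95% Poisson interval of the fold held the group's median for 13 genes, lay above it for 12 and below it for 11. Differences between genes at the top and the bottom of the order were therefore larger than the counting error of the summit fragments. The intervals cover that error only. The local background, itself a small number of fragments, was taken as exact. Fragments need not be independent molecules, and variation between cultures was not measured.

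**Figure D2:**
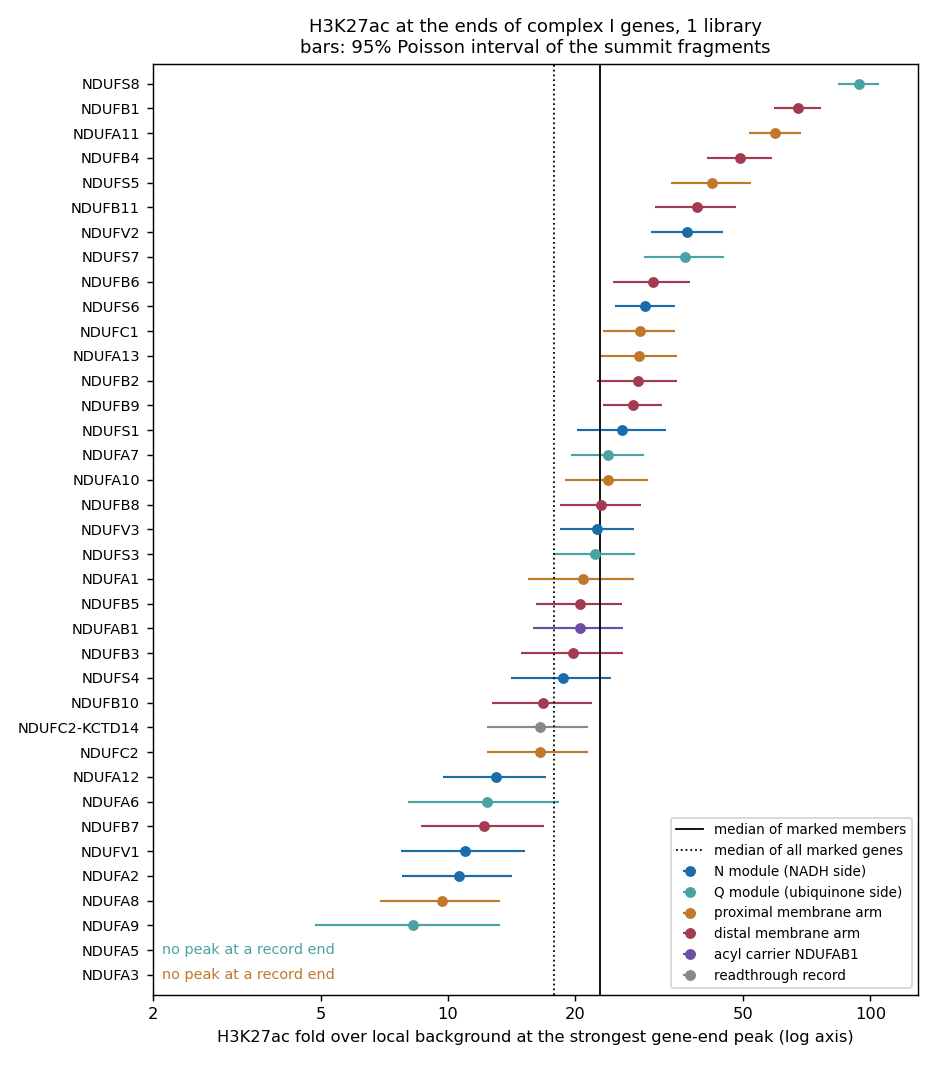
H3K27ac fold at the strongest gene-end peak of 37 complex I genes, on a log axis, with bars for the 95% Poisson interval of the fragments at the summit (counting error only) and colours for the part of the complex. NDUFS8 (93.9) is the highest and NDUFA9 (8.26) the lowest of the marked genes drawn, and NDUFA3 and NDUFA5 have no peak at a record end.

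All 8 N module genes were marked, with a median fold of 20.6. NDUFV2, which carries an iron-sulfur cluster next to the NADH site, was the highest at 36.9 (95% interval 30.2 to 44.7), in a peak 2941 bp wide. NDUFS6, a zinc-binding subunit, followed at 29.3 (24.9 to 34.4). NDUFS1, the largest subunit, which holds several iron-sulfur clusters, had 25.9 (20.2 to 32.8). NDUFV1, which binds FMN and NADH, had one of the lower values at 11.0 (7.76 to 15.2), and its interval lay below that of its partner NDUFV2. NDUFA2 was the lowest of the module at 10.6 (7.77 to 14.2). NDUFV3, NDUFS4 and NDUFA12 had 22.6, 18.7 and 13.0.

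The Q module had 7 of 8 genes marked, with a median of 22.3, and held the highest value of the whole group. NDUFS8, an iron-sulfur subunit, had 93.9 (83.7 to 105) on 306 fragments, but this peak lay at the far end of the record, 6154 bp from the start, and ran over TCIRG1, which encodes a subunit of the lysosomal proton pump. At its start NDUFS8 had a second peak with a fold of 36.2 that was 8089 bp wide and ran over ALDH3B1. NDUFS7, which carries the last iron-sulfur cluster before ubiquinone, had 36.4 (29.1 to 45.0). NDUFS3 had 22.3 (17.7 to 27.7), and the accessory subunits NDUFA7, NDUFA6 and NDUFA9 had 24.0, 12.4 and 8.26.

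NDUFA5, an accessory subunit, had no H3K27ac at its record ends, yet it was acetylated at a start. Its record reaches 64655 bp because of an outer start at 123601651 on chromosome 7. The RefSeq table also gives an inner start at 123557818, and a peak at chr7:123557331-123558278 had its summit 186 bp downstream of it, with a fold of 10.9 on 29 fragments. The outer window held 3 CpG dinucleotides and 42.0% G and C, and the inner one 15 and 54.0%. The mark was found at the inner start and not at the outer one. With RefSeq starts added to the record ends, 37 of 38 genes were marked, against 56.7% of all protein-coding genes. This setting was added with the data in view.

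NDUFA3, a small membrane-arm subunit, was the gene with no H3K27ac peak anywhere. Its record spans 54102855 to 54107568 on chromosome 19, and the nearest peak was 7834 bp away. Its promoter window held 31 CpG dinucleotides, within the range of marked genes (10 at NDUFS4 to 39 at NDUFB10). Of the 33 other protein-coding genes within 500 kb, 9 (27.3%) were marked, against 53.0% of all. The H3K27ac list also had 133 peaks on alternate contigs of chromosome 19, whose positions were not used here, and their part in the missing peak was not tested.

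In the proximal membrane arm 8 of 9 genes were marked, with a median of 26.1. NDUFA11, which holds membrane subunits together, was the highest at 59.6 (51.6 to 68.6) on 194 fragments. NDUFS5, an intermembrane-space subunit, had 42.1 (33.7 to 52.1), and NDUFC1 and NDUFA13 (also known as GRIM-19) had 28.5 and 28.3. NDUFA10, a kinase-like subunit, had 23.9, NDUFA1, encoded on the X chromosome, 20.9, and NDUFC2 16.5. NDUFA8 was the lowest at 9.70 (6.90 to 13.3), with an interval well below that of NDUFA11. NDUFC2 and NDUFC2-KCTD14 were marked by 1 peak.

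All 11 genes of the distal membrane arm were marked, with a median of 27.4. NDUFB1 led at 67.3 (59.1 to 76.3) on 241 fragments, followed by NDUFB4 at 49.2 (41.1 to 58.4). NDUFB11, encoded on the X chromosome, had 38.8 (31.0 to 48.0). The peak of NDUFB4 was compact, 764 bp wide, whereas that of NDUFB1 was 2575 bp wide and had its summit 414 bp upstream of the start, towards CPSF2. NDUFB7 was the lowest at 12.2 (8.62 to 16.9), and NDUFB10 had 16.8. NDUFB2, NDUFB3, NDUFB5, NDUFB6, NDUFB8 and NDUFB9 lay between 19.8 and 30.6. NDUFAB1, the acyl carrier protein of the mitochondrion that also sits in complex I, had 20.5 on 66 fragments.

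The module medians of 20.6, 22.3, 26.1 and 27.4 lay close together beside the spread within each module, and the 7 core subunits had a median of 25.9, against 22.9 for 30 accessory ones. No order of the modules was read from these values.

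The position of the mark was more uniform than its level. For 29 genes the strongest gene-end summit lay within 1 kb of a RefSeq start, at a median of 173 bp downstream, with quartiles of 127 and 213 bp. Summits between 100 and 300 bp downstream were found in 23 of 29 (79.3%), against 45.4% of 7920 other genes; this range was chosen after the values were seen. The other genes had a similar median of 176 bp but quartiles of -134 and 272 bp. NDUFS6, NDUFB2, NDUFS3, NDUFA2, NDUFA9, NDUFAB1 and NDUFS7 had summits at 159, 162, 162, 164, 167, 173 and 173 bp, although their folds ran from 8.26 to 36.4. The 6 with a summit upstream of the nearest RefSeq start were NDUFA10, NDUFB1, NDUFB3, NDUFB11, NDUFC1 and NDUFS1. The summits of NDUFB11, NDUFC1 and NDUFS1 still lay inside their records, which reach beyond that start. Widths had a median of 1418 bp, close to the 1433 bp of all marked genes. After NDUFS8, the widest were at NDUFB9 (3410 bp), NDUFV2 (2941 bp), NDUFA1 (2774 bp), NDUFA7 (2764 bp) and NDUFS1 (2732 bp).

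**Figure D3:**
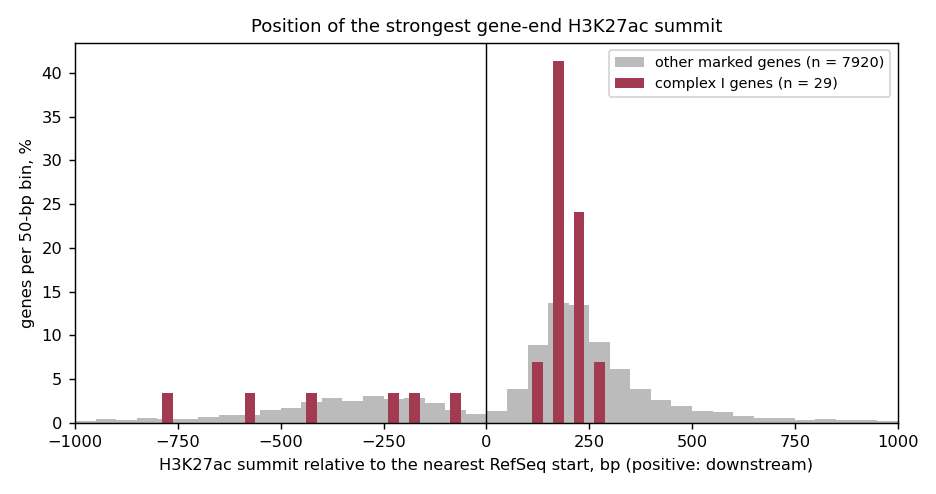
Distance from the nearest RefSeq start to the strongest gene-end H3K27ac summit, in bp, with positive values downstream, as the percentage of genes in each 50-bp bin for 29 complex I genes (red) and 7920 others (grey). The complex I summits crowd between 100 and 300 bp downstream (79.3%, against 45.4%).

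Many of these promoters lay beside a start of another gene. A start, coding or not, on the opposite strand within 1 kb was found for 15 of 33 genes (45.5%), against 25.9% of 15843 genes. The partners included RPS28, a ribosomal protein gene 121 bp upstream of NDUFA7, the elongation factor gene EEF1B2 165 bp upstream of the outer start of NDUFS1, and RNF113A 99 bp upstream of NDUFA1. IK lay 199 bp upstream of NDUFA2, MORN5 129 bp upstream of NDUFA8 and KBTBD4 104 bp upstream of NDUFS3. The 14 marked at a record end had a median fold of 24.9, against 22.6 for the 17 with no opposite start. In all, 19 of 36 strongest peaks (52.8%, against 29.0% of 10623 marked genes) had their summit within 1 kb of an end of another protein-coding gene, a number that counts NDUFC2 and its readthrough as neighbours of each other. MRPL47 shared the NDUFB5 peak and MRPL36 the NDUFS6 peak, both mitochondrial ribosomal protein genes. A shared peak cannot be assigned to either gene.

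A pair of peaks at the record ends was found in 6 genes (15.8%, against 8.66% of all genes). Only a marked gene can have a pair. Among marked genes, 6 of 36 had more than 1 such peak, against 1736 of 10623 over all genes. These shares are close, so nothing particular to complex I is read from the pairs. At NDUFA2, NDUFB2 and NDUFV1 the peaks flanked the start: the stronger lay 164, 162 and 226 bp downstream and the weaker upstream, with folds of 8.23, 8.96 and 4.41 for the weaker. At NDUFA7, NDUFB6 and NDUFS8 the second peak lay at the far end. For NDUFB6 the far-end peak was the stronger, with 30.6 against 20.6 at the start, and it ran over TOPORS and SMIM27.

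Inside the record, more than 1 kb from both ends, 10 of 38 genes (26.3%) had a H3K27ac summit, against 32.0% of all genes, whose records were longer (median 24115 bp, against 12268 bp). The strongest was at NDUFC1, with a fold of 60.5 in a peak 1722 bp wide, above the 28.5 of its own end peak. NDUFB9 had a peak of 6494 bp inside its record with a fold of 16.8, and H3K27ac peaks covered 90.1% of that record, the highest share of the group, followed by 84.8% at NDUFS8. NDUFA10, which has the longest record at 132901 bp, had 7 internal peaks with folds from 3.05 to 14.4. In NDUFA9 and NDUFS4, by contrast, peaks covered 0.781% and 0.645% of the record.

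**Figure D4:**
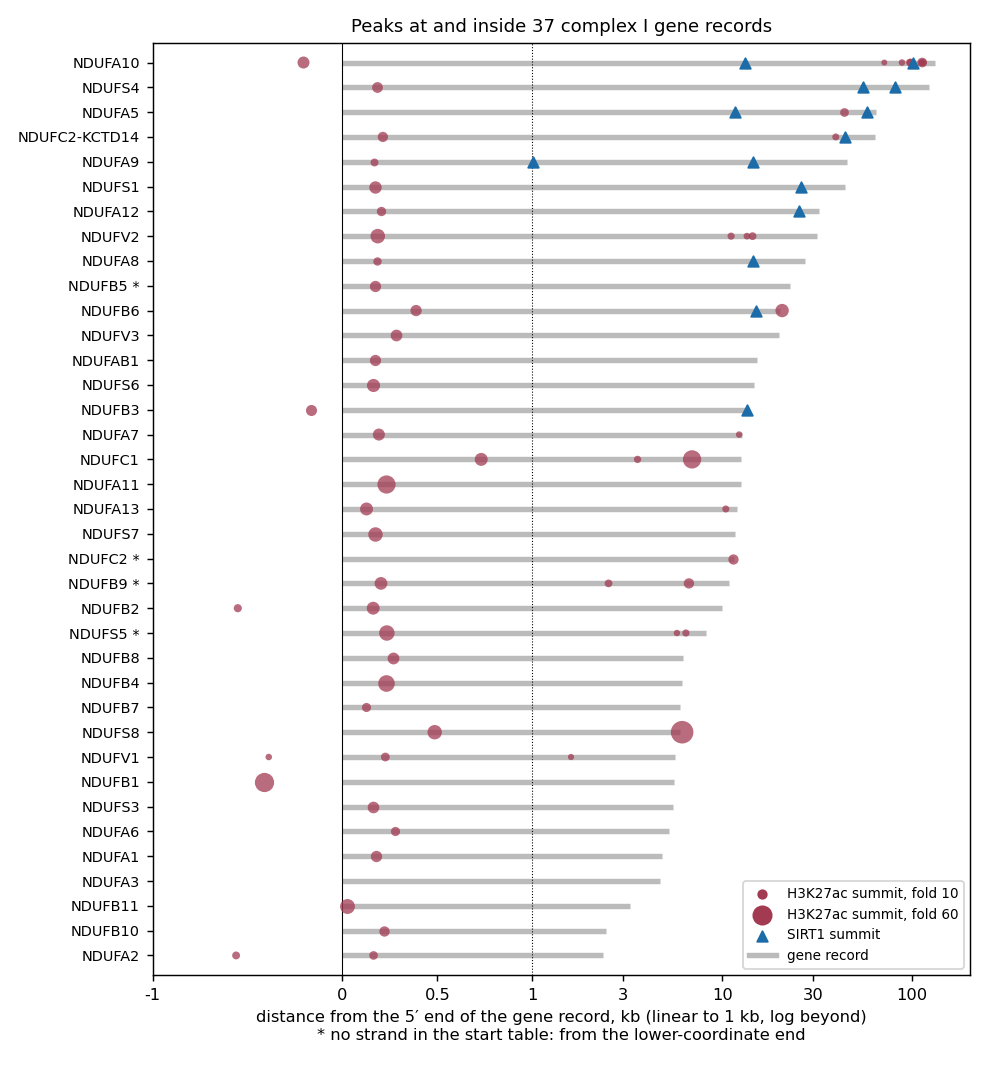
Summits of H3K27ac (red circles, area growing with fold) and SIRT1 (blue triangles) at and inside 37 of the gene records (grey bars, sorted by length), by distance from the 5′ end of the record in kb on an axis that is linear to 1 kb and logarithmic beyond; records marked * have no strand in the table and are drawn from the lower coordinate. H3K27ac lies near the 5′ end of nearly every record, and the 14 SIRT1 summits lie farther in, mostly in long records.

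SIRT1 was found at the end of 1 complex I gene. NDUFB3, a distal membrane-arm subunit, had a SIRT1 peak at chr2:201085500-201085756 at the far end of its record, with the summit 13596 bp from its start. Its fold was 2.20 (95% Poisson interval 0.912 to 6.04) on 2 fragments, and that interval holds a fold of 1. That is 2.63% of 38 genes, against 9.34% of all protein-coding genes. Within 1 kb of a start none of 33 genes had SIRT1, against 4.28% of 15843 genes. NDUFB3 was also the 1 gene with both marks at record ends (2.63%, against 3.39%), and they lay at opposite ends, 12936 bp apart.

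A further 9 genes had SIRT1 inside the record only (23.7%, against 43.0%). These were NDUFA5, NDUFA8, NDUFA9, NDUFA10, NDUFA12, NDUFB6, NDUFS1, NDUFS4 and NDUFC2-KCTD14. Their records were long, with a median of 45204 bp, against 9936 bp for the 29 without. Per length, the records of the group held 16.6 SIRT1 summits per Mb (95% Poisson interval 9.07 to 27.8), against 32.2 over all protein-coding records. Per gene the records held 0.368 SIRT1 summits, against 2.03. H3K27ac had 64.0 summits per Mb (48.1 to 83.5) against 23.6, and 1.42 per gene against 1.49. The records of the group were shorter than those of all genes, and the part of length in these differences was not tested for either mark. Summits of one gene are not independent of each other, so these intervals cover counting error only.

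The SIRT1 evidence at each site was thin. Of the 14 peaks, 11 rested on 2 fragments 3 rested on 3 fragments with a fold of 2.94, at NDUFA5, NDUFA12 and NDUFS4. All 14 had a deposited −log10 q of 0, so none passed a correction for multiple testing by the peak caller. In the whole list 84.4% of SIRT1 peaks rested on 2 or 3 fragments. At NDUFA9 a SIRT1 summit lay 1005 bp downstream of the start, just outside the window used, and 533 bp from the H3K27ac peak, the closest approach of the marks in the group. None of the 63 H3K27ac peaks at or inside these genes was overlapped by a SIRT1 peak. Overlap was rare in general, at 1.45% of 31930 H3K27ac peaks at or inside protein-coding genes, and nothing particular to complex I is read from the absence here.

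Genes that work with complex I were set beside it. Of 18 assembly factor genes 15 were marked (83.3%), with a median fold of 19.3. The highest were TIMMDC1 at 42.3 and ACAD9 at 33.3, both needed to build the membrane arm, and ECSIT at 29.8. NDUFAF3, NDUFAF6 and NUBPL had no H3K27ac at a record end. COA1, DMAC1 and TMEM126B had SIRT1 peaks at an end, each on 3 fragments, and their H3K27ac folds were the lowest of the list at 5.56, 7.03 and 6.20. That is SIRT1 at an end of 16.7% of the list, against 9.34% of all genes. No relation between the marks was read from these 3 genes.

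Among 10 regulators of respiratory genes, 9 were marked, with a median of 41.8. GABPB1 and GABPA, which together encode an ETS-family activator, had 105 and 101, and YY1 had 50.1. PPARGC1A, the coactivator PGC-1 alpha and a known SIRT1 substrate, had no H3K27ac at a record end. It had SIRT1 inside its record, as did 48.0% of all protein-coding genes. SIRT1 lay at a record end of GABPA, GABPB1 and NRF1, on 2, 4 and 3 fragments, which is 3 of 10 genes against 9.34% of all genes. Their H3K27ac folds were 101, 105 and 45.9, unlike the low folds of the assembly factors with SIRT1 at an end. Each mark was counted at either record end, so the 2 marks of a gene need not lie together.

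Complexes II to V had 39 of 43 genes marked (90.7%) with a median of 24.1, and mitochondrial ribosomal proteins 73 of 77 (94.8%) with a median of 17.4. ATP5PF, whose peak of 2745 bp is also that of GABPA, had 101 and UQCRH 63.6, and MRPL23 had 65.1 and MRPS34 55.0. ATP5MC2, ATP5MGL, COX7A2 and UQCRHL, and MRPL24, MRPL40, MRPL44 and MRPS2, had none at a record end. SIRT1 lay at an end of 3 genes of complexes II to V (6.98%) and 2 mitochondrial ribosomal protein genes (2.60%). The share of marked genes in complex I was thus like that of these lists, and no test of a difference was made. The lists are not independent, since MRPL36 and MRPL47 share peaks with complex I genes.

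**Figure D5:**
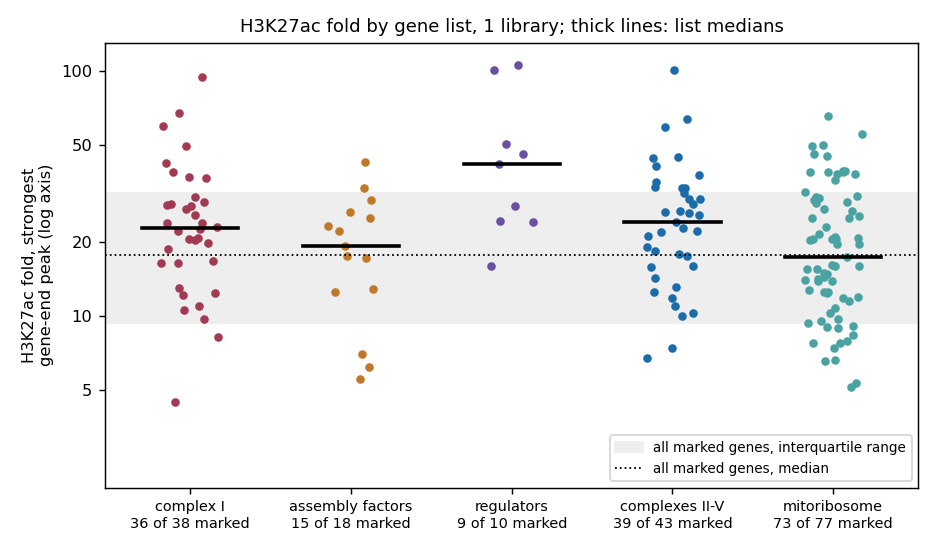
H3K27ac fold at the strongest gene-end peak, on a log axis, for marked genes of complex I and 4 related lists, with thick lines for list medians and the median (dotted) and interquartile range (grey) of all marked protein-coding genes. The medians are 22.9 for complex I, 19.3 for assembly factors, 41.8 for regulators, 24.1 for complexes II to V and 17.4 for mitochondrial ribosomal proteins.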

How the data were processed

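Peak lists of 1 H3K27ac and 1 SIRT1 library were used; the input library was not analysed here. The submitters' processing notes name hg38, deepTools and MACS2. Aligner, versions and control: not given in the sources used here. The authors' deposited columns used were the fold (a ratio to local background at the summit), the −log10 p and −log10 q, and the summit position. The score that the authors deposited was left aside. The smallest −log10 q was 1.30 for H3K27ac, and the smallest −log10 p 2.00 for SIRT1, so the lists were filtered differently and folds were compared within a list only. They held 50268 and 96805 peaks; total read numbers are not given.

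Summit fragments were solved from the p, as a Poisson tail, and the fold, as the quotient of fragments and background after 1 is added to each. This gave a single whole number for 99.958% and 99.998% of peaks, and the true number in 100% of 2966 and 1503 simulated peaks. The simulated peaks were made with the same formulas, so they check the solving and not whether the deposited columns follow those formulas. Genes, starts and promoter windows came from RefSeq (GRCh38.p14) on chromosomes 1 to 22, X and Y; promoter windows were matched by gene identifier. Shares stand beside those of all protein-coding genes, without a test.

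The genes, lists and letters searched were chosen with earlier results of these data known. By the rule for named genes, the 6 highest and 6 lowest folds, the core subunits, unmarked genes, genes with SIRT1, the widest peaks and the highest of each related list were named, and others by choice after their values were seen; 1 gene is counted in the totals but not reported here by itself. NDUFA4 and NDUFA4L2 are listed by RefSeq under other symbols and were not matched. Versions were scipy 1.17.1, pandas 2.3.3, matplotlib 3.10.9, numpy 2.4.6 and Python 3.11.15.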

Additional observations from a re-analysis of the deposited data

Results flagged for a closer look

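Peaks were found in a part of the lists that no comparison used. Alternate contigs of chromosome 19, the chromosome of the unmarked NDUFA3, held 133 H3K27ac peaks on 19 contigs and 26 SIRT1 peaks on 10 contigs. The relation of these contigs to the NDUFA3 record was not tested.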

How the results depend on the processing

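The number of marked complex I genes stayed between 35 and 37 in every setting run, the median fold between 22.3 and 23.5, and the number with a summit at a start between 30 and 32. No H3K27ac peak of these genes was overlapped by SIRT1 in the setting reported, against a share of 1.45% over all protein-coding genes. The other settings run for this count could only remove peaks or overlaps, so they could not have raised it and show no stability. The SIRT1 counts were small and moved. All 14 SIRT1 peaks had a −log10 q of 0, a fold of at most 2.94 and at most 3 fragments. The cut-offs below on q, fold and fragments therefore removed every one of them, and nothing particular to complex I is read from those zeros. The cause of the other moves was not tested. A window of 500 bp gave 44.6% of all genes with H3K27ac and 4.83% with SIRT1. A window of 2500 bp gave 58.5% and 21.7%, with SIRT1 at 4 complex I genes and both marks at 4. Peaks with a −log10 q of at least 5 gave 50.1% and 0%, and 0 complex I genes with SIRT1 at an end, 0 with both and 0 with SIRT1 inside only. A fold of at least 4 gave 51.3% and 0.140%, and likewise 0, 0 and 0. Placing peaks by any shared base gave 56.7% and 10.8%, with SIRT1 at 2 complex I genes and both marks at 2. Without NDUFC2-KCTD14, 35 genes were marked and 8 had SIRT1 inside only. The 2 settings that follow were added with the data in view. RefSeq starts added to record ends gave 56.7% and 10.2%. SIRT1 peaks on at least 4 fragments gave 1.61% of all genes and 0, 0 and 0 for complex I. No paired analysis was possible because each antibody had 1 library.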

Other observations

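Subunits that once carried complex I names fell outside the rule. NDUFA4, now counted with cytochrome c oxidase and listed as COXFA4 on chromosome 7, had an end peak from 10939431 to 10941264 with a fold of 35.2. Its relative NDUFA4L2, listed as COXFA4L2 on chromosome 12, had one from 57239335 to 57241485 with a fold of 22.7. Neither had a SIRT1 peak at an end or inside the record.

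Peaks just beyond the window of 1 kb included a H3K27ac peak of 2663 bp at the NDUFV1 locus with its summit 1947 bp past the nearer record end. Its fold of 22.6 exceeded the 11.0 of the start peak of NDUFV1. A SIRT1 peak on 3 fragments lay 2133 bp from NDUFV3, over WDR4, and one on 2 fragments lay 1435 bp from NDUFB4.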
